A study of Mus musculus with 9 samples.

Results

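Among the 54307 genes measured in C2C12 cells, 137 had almost no reads in the control group (NC) and a clear signal in every library of the high glucose group (H). They were chosen by their values: a mean below 0.1 FPKM in NC and an FPKM of at least 1 in each H library, where FPKM is the number of sequenced fragments per kilobase of transcript, scaled to the mapped total of the library. Another 13 genes passed these limits and were left out by symbol (genes of the Zscan4, Tcstv, Tdpoz and Sprr families, Slc6a12 and Fxyd2). The low NC values and the high H values are therefore a description with no test, and the HL group is the one that had no part in the choice.

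C2C12 is a mouse myoblast line that fuses into myotubes when serum is withdrawn. NC was the untreated control, H received 25 mmol/L glucose, and HL received 25 mmol/L glucose with 200 nmol/L liraglutide, a long-acting analogue of glucagon-like peptide-1, all for 48 h and with 3 libraries each. The glucose concentration of NC is not given in the sources used here, and all libraries come from 1 cell line. No mannitol group was among those sequenced, so glucose and osmotic strength cannot be told apart in these libraries. In other assays the paper did use mannitol. It reports no significant difference from untreated cells in AMPKα, MAFbx, MuRF1 or 3-methylhistidine, and fewer living cells in high glucose than with mannitol. The methods speak of independent repeats of experiments in general but do not tie the 3 libraries within a group to different cultures, and the p-values below therefore cover the spread between libraries, which may be technical, and nothing wider.

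Many of the genes on this list belong to families that the mouse embryo transcribes when its own genome first becomes active, around the 2-cell stage. Such families lie in tandem arrays of nearly identical copies, and part of their transcripts start in the long terminal repeats of MERVL, an endogenous retrovirus. The PRAME-like, Obox, Spopfm and Tdpoz, Usp17-like and Tcstv families and the zinc finger gene Zfp352 are of this kind, and in most adult cells they are silent. In cultured mouse stem cells a rare, passing 2-cell-like state transcribes them, and the double homeobox factor Dux is a known activator of this programme.

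The libraries held 17.4 to 22.9 M fragments, as estimated from the steps between low FPKM values. Of the myoblast markers, Vim, Des and Itga7 were above 80 FPKM in every library and Pax7 and Myog below 2.2, and the 11 markers summed to between 2680 and 2710 FPKM (NC), 2320 and 2410 (H), and 3300 and 3340 (HL). Of the other cell types, the 20 macrophage markers summed to between 35.5 and 37.1 FPKM (NC), between 178 and 260 (H) and between 53.9 and 56.1 (HL), with Csf1r at 149, 91.5 and 133 in H and below 0.7 elsewhere, while the complement genes C1qa, C1qb and C1qc and the adaptor Tyrobp were at 0 in every library. The rise in H was not that of Csf1r alone. In the fit given below, all 5 macrophage markers tested were called higher in H than in NC and 0 lower. Over all tested genes these shares were 10.3% and 5.75%. The rest of the 20 did not reach 1 FPKM in 3 libraries and were not tested. Csf1r reached it only in H, so the filter partly fixed this direction. Of the 5, 3 were called lower in HL than in H. The 10 pluripotent cell markers summed to between 0.539 and 1.33 FPKM (NC), 8.01 and 10.8 (H), and 0.438 and 0.895 (HL), with Dppa5a at 10.4, 7.87 and 7.6 in H and between 0.268 and 0.96 in NC and HL, and Pou5f1, Zfp42 and Utf1 were at 0 throughout. The 10 germ cell markers stayed between 1.33 and 1.94 FPKM in all 9 libraries. The part of other cells in the results was not tested, and in bulk RNA a few cells with much of a transcript and many cells with little of it cannot be told apart.

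The transcripts fell into a few annotation classes of GENCODE M21. Protein-coding genes made up 67 of the 137 (48.9%), pseudogenes 42 (30.7%), long non-coding RNAs 22 (16.1%), loci of the class TEC, whose transcripts still lack experimental proof, 4 and small RNAs 2. Among the 12409 other annotated genes with at least 1 FPKM in each H library, 91.0% were protein-coding, 2.58% were pseudogenes and 5.32% were long non-coding RNAs. Over all 51482 annotated genes, whatever their level, the shares were nearer to those of the members. There, 42.3% were protein-coding, 25.6% were pseudogenes and 21.6% were long non-coding RNAs. Provisional names made of Gm and a number covered 72 of the 137 genes (52.6%) but 6.5% of those others. Only 21 of the 137 were on any of 14 function lists, 13 of them on the list of early embryo and MERVL-linked genes.

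Near the limits of the rule, the lowest H minimum inside was 1.0 FPKM for Gm45463 and for Usp17ld, followed by 1.01 for 2310069B03Rik, and the nearest genes outside were AU019990 (0.999), Eps8l3 (0.989) and Gstt4 (0.982). The highest NC means inside were 0.0975 for Krt23, 0.0972 for Hist1h1d and 0.0971 for Gm31045, and those nearest outside were AC138790.1 (0.101), AC148019.3 (0.103) and Defb43 (0.103).

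Of the members with a RefSeq promoter, 6 from several chromosomes shared a stretch of promoter sequence. RefSeq promoters (from 250 bases before to 50 after the start of the transcript, GRCm38.p6) were matched for 51 of the 137 genes. A stretch of the AF067061 promoter, 65 bases long and ending 33 bases before the start, aligned with the promoters of 5 other members on chromosomes 3, 4, 10 and 13. AF067061 and Gm21761 are Tcstv-like genes, Gm4340 and Gm21293 belong to the Gm4303 family, Zfp352 is a zinc finger gene, and Gm4858 carries the current name Tdpoz8. The stretches are shown because the genes that hold them are not copies of one another outside their own family, and capitals mark the letters ATATAA, which resemble a TATA box.
AF067061, chr13:120262998-120263062, plus strand: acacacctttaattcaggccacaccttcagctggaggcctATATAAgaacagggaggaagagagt
Gm21761, chr13:119913501-119913565, minus strand: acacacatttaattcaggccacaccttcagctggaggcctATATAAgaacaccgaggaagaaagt
Zfp352, chr4:90218750-90218807, plus strand: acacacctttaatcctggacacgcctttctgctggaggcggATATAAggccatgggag
Gm4340, chr10:104193972-104194036, plus strand: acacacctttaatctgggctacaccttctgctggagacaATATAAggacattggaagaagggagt
Gm4858, chr3:93068756-93068814, plus strand: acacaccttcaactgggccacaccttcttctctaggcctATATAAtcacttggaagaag

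Identity to the AF067061 stretch was 93.8% for Gm21761, 81.0% over 58 bases for Zfp352, 80.3% for Gm4340 and for Gm21293, and 78.3% over 60 bases for Gm4858. The Gm21293 stretch had the same letters as that of Gm4340. The promoter of a further member, Gm10696 on chromosome 3, aligned with that of AF067061 over 144 bases that cover the stretch (74.3% identity). It was not among the genes found with the stretch alone and is not counted here. The letters ATATAA, on either strand, stood in the promoters of 18 of the 51 matched genes (35.3%) and of 11.3% of all 27025 genes with a RefSeq promoter. These letters are part of the shared stretch, whose 6 genes are all among the 18, and copies of one family count separately. The first share is thus partly fixed by the choice. No repeat annotation was used here, so the stretch is not assigned to any repeat.

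Searching all RefSeq promoters for the same stretch, by sequence and without regard to expression, gave 18 further genes with a row in the table and 14 without a matched row. Of the 18, 4 had every H library above every NC library, 2 had every H library below, and 4 were at 0 in all 9 libraries. Gm12789 was at 0 in NC and HL and at a mean of 1.22 FPKM in H, and Gm16381 had means of 0.332 FPKM (NC), 2.27 (H) and 1.12 (HL), whereas Pemt, a phospholipid methyltransferase gene, and Zbed3 had lower means in H than in NC (5.16 against 7.41 and 12.2 against 14.7 FPKM). The stretch was thus present in promoters of genes that were silent, higher or lower in H.

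A second set of letters, GATTNAATC, recurred in the promoters of 7 of the 51 genes (13.7%), against 0.307% of all genes with a RefSeq promoter. These letters are close to the core bound by Dux, and they were searched after the members had been seen. The 7 genes belong to 3 families (AF067061 and Gm21761, Gm4340 and Gm21293, and the PRAME-like Gm13040, Gm13043 and Gm13119), and copies of one family share most of their promoter. The 250 bases before the start are shown for 1 gene of each family, with GATTNAATC and TATAAA in capitals.
AF067061, chr13:120262845-120263094, plus strand: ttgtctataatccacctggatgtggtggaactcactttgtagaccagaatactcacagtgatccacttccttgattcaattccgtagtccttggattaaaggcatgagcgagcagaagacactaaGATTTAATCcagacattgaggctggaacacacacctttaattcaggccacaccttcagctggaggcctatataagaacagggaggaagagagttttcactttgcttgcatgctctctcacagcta
Gm4340, chr10:104193792-104194041, plus strand: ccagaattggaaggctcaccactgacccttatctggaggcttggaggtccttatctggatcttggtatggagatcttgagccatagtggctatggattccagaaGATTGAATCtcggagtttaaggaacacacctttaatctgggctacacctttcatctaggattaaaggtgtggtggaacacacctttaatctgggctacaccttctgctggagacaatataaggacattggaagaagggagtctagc
Gm13040, chr4:143535704-143535953, plus strand: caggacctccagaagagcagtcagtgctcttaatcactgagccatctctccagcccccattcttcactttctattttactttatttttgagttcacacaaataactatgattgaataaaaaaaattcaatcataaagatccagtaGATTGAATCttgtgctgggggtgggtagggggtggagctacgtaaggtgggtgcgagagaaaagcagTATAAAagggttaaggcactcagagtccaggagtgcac

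Counted from the start, the core was at -125 in AF067061 and Gm21761, at -146 in Gm4340 and Gm21293, at -105 in Gm13040, and at -136 in Gm13043 and Gm13119. A longer form, with 1 more fixed base at each end, was in 0 of the 51 and in 0.0407% of all genes. Of 49 other genes in the table with GATTNAATC in the promoter, 9 had every H library above every NC library and 9 every H library below. The Dux gene itself (Duxf3) was at 0 FPKM in the 3 NC libraries, at 0.36, 0 and 0.11 in H, and at 0, 0 and 0.0327 in HL, so its H and HL libraries overlapped. Other motifs, read on both strands, were TGANTCA, bound by AP-1, in 19.6% of the 51 and 8.97% of all genes, TGACGTCA, bound by CREB, in 1.96% and 2.03%, TATAAA, which can overlap ATATAA, in 25.5% and 15.7%, and the tonicity element TonE in 11.8% and 5.74%. Copies of one family count separately in these shares as well.

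In the HL group most of these transcripts were near 0 again. Of the 137 genes, 57 were at 0 in all 3 HL libraries, 100 had an HL mean below 0.1 FPKM, 33 between 0.1 and 1, and 4 at 1 or more. The median gene had an HL mean of 0.542% of its H mean. In 132 of 137 genes all HL libraries were below all H libraries, an order found in 24.9% of the 13674 genes tested, and in 18 of 137 all HL libraries were above all NC libraries, an order found in 29.5% of the genes tested. The H values that chose the members enter the first of these counts and the NC values the second.

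**Figure D1:**
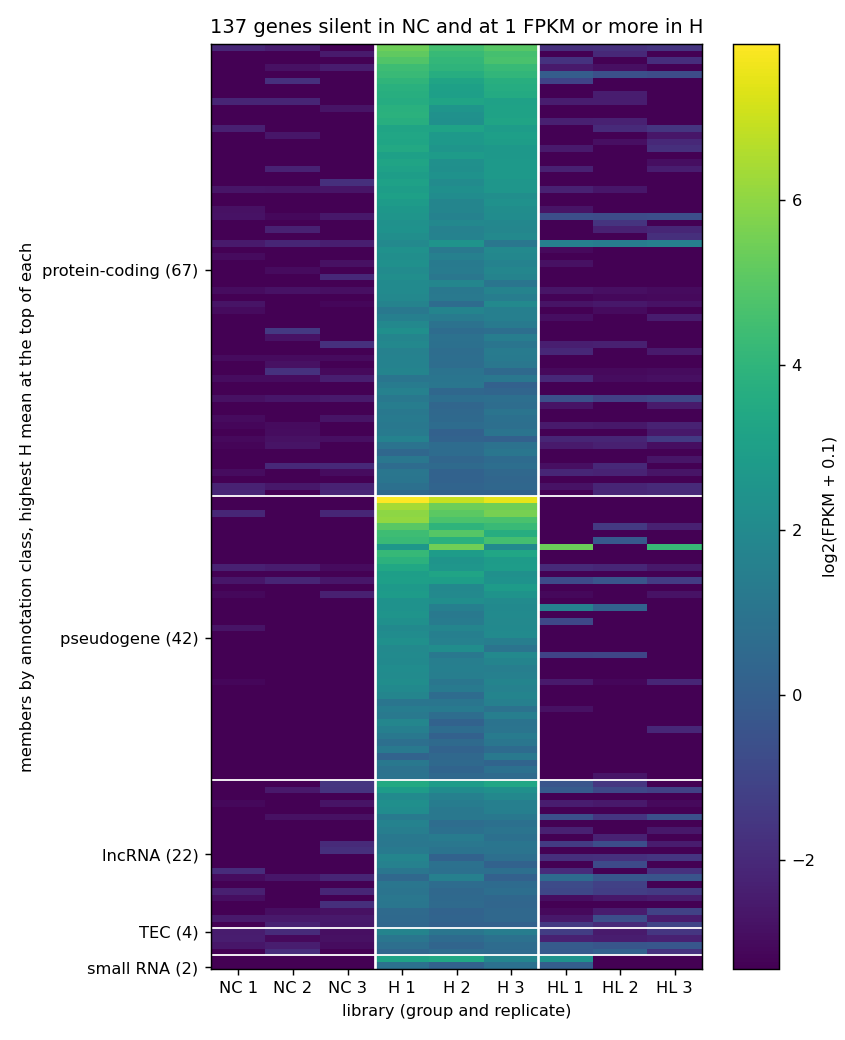
Each row is 1 of the 137 genes and each column 1 library, and colour gives log2(FPKM + 0.1), with the rows grouped by annotation class (TEC, transcripts lacking experimental proof, and lncRNA, long non-coding RNA) and sorted by their H mean. The 3 H columns are bright by the rule, and the HL columns are as dark as NC for most rows, with 57 rows at 0 in all HL libraries.

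In the fit of all 9 libraries with limma on log2(FPKM + 0.1), 131 of the 137 genes were called lower in HL than in H (Benjamini-Hochberg p below 0.05 and a log2 change larger than 1 in size), beside 5.83% of all 13674 tested genes, and 0 were called higher, beside 3.55%. The median log2 difference of the 137 was -4.48 in HL against H and 0.04 over all tested genes. Compared with NC, 14 of 137 (beside 6.3% of the tested genes) were called higher in HL and 0 lower (beside 2.41%), with a median log2 difference of 0.03 for the members and -0.04 for all tested genes. Both contrasts share libraries with the rule, so these counts describe the members and are not tests of them. The same holds for the p-values of single members given below. The sizes near 0 depend on the pseudocount: with a pseudocount of 1, only 1 gene was called higher in HL than in NC.

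The same limits were applied to each pair of groups, with no symbol left out. Silent in NC and at 1 FPKM or more in each H library were 150 genes, and silent in HL and at 1 or more in each H library were 120. Only 8 genes were silent in NC and on in HL, 8 were silent in H and on in NC, 7 were silent in HL and on in NC, and 4 were silent in H and on in HL. The 2 longest lists share the H libraries.

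The largest group was made of PRAME-like genes, whose human relatives include a tumour antigen with leucine-rich repeats. By transcript similarity (at least 90% identity over at least 50% of the transcript), 10 genes on chromosome 5 formed the family of A430089I19Rik (now Pramel39), and with 3 genes of the Gm7942 family they lay in 1 run of 13 neighbours. The summed FPKM of the 10 was 66.9, 39.7 and 53.2 in H, 0, 0.0886 and 0.0956 in HL, and at most 0.06 in NC. BC061212, one of the 10, had 9.17, 4.87 and 6.41 FPKM in H, 0 in all NC libraries, and 0, 0 and 0.0353 in HL, which was 339, 152 and 239 fragments in H and 1 in HL. The families and neighbours named here and below were picked after their values had been seen.

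Other PRAME-like genes lay on chromosome 4. Gm12794 (now Pramel19) had 21.4, 15.6 and 18.7 FPKM in H, 0, 0.04 and 0.0803 in NC, and 0.0777, 0.0396 and 0 in HL. This was 573, 354 and 506 fragments in H and at most 2 in any other library. The 5 genes of the Gm13040 family, among them the genes now called Pramel31 and Pramel16, summed to 27.5, 16.7 and 21.2 FPKM in H and to no more than 0.0812 in any HL library. The pair Gm13078 and Pramef6 (now Pramel24 and Pramel11) was at 0 in all HL libraries. No H library overlapped an NC or HL library in any of these families.

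On chromosome 10, the Gm4303 family had 9 members in 2 arrays, 6 protein-coding and 3 pseudogenes, with no established function in the annotation used. Gm4303 itself had 35.9, 18.5 and 23.7 FPKM in H (26.1 ± 8.94, SD, n = 3), 0, 0 and 0.0744 in NC, and 0, 0.148 and 0 in HL, that is 522, 228 and 348 fragments in H, 1 in NC and 2 in HL. Gm4302 had 28.4, 17.2 and 25.2 FPKM in H, 0 in NC, and 0.21, 0 and 0.174 in HL. The family summed to 159, 91.1 and 115 FPKM in H and 0.588, 0.56 and 0.514 in HL, the latter above the highest NC sum of 0.192. The HL sums rest on few fragments. Gm4302 had 3, 0 and 2 fragments in HL and Gm8723 0, 3.06 and 0.998, too few to be told from 0.

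On chromosome 13, the Tcstv-like genes Gm21761 and AF067061 belonged to a family of 4. Gm21761 had 43.1, 22.9 and 31.2 FPKM in H (32.4 ± 10.1, SD, n = 3), 0.129, 0.0857 and 0 in NC, and 0.184, 0.196 and 0.23 in HL. Its HL libraries were all above its NC libraries, with a log2 difference of 0.90 ± 0.34 (SE) that missed the threshold (limma, adjusted p = 0.0527). AF067061 had 10.8, 5.72 and 6.11 FPKM in H, 0 in all NC libraries, and 0.0751, 0 and 0.188 in HL. Their transcripts are 93.7% and 95.6% identical to that of Tcstv1, one of the genes left out, so fragments of the 3 may have been divided between them.

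Smaller families of embryo-type genes were also near 0 in HL. The 5 Spopfm-like genes of chromosome 3 (leading member Gm5286) summed to 24.4, 13.6 and 18.4 FPKM in H and 0.104, 0.0574 and 0.0868 in HL. The 3 Obox4 pseudogenes of chromosome 7, related to oocyte-specific homeobox genes, summed to 14.9, 9.08 and 12.5 FPKM in H and were at 0 in the other 6 libraries. Zfp352 had 3.32, 1.7 and 2.6 FPKM in H, 0, 0.0476 and 0 in NC, and 0 in all HL libraries. Usp17ld, of a family of deubiquitinating enzymes, had 2.31, 1 and 1.88 FPKM in H and 0, 0 and 0.0669 in HL.

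**Figure D2:**
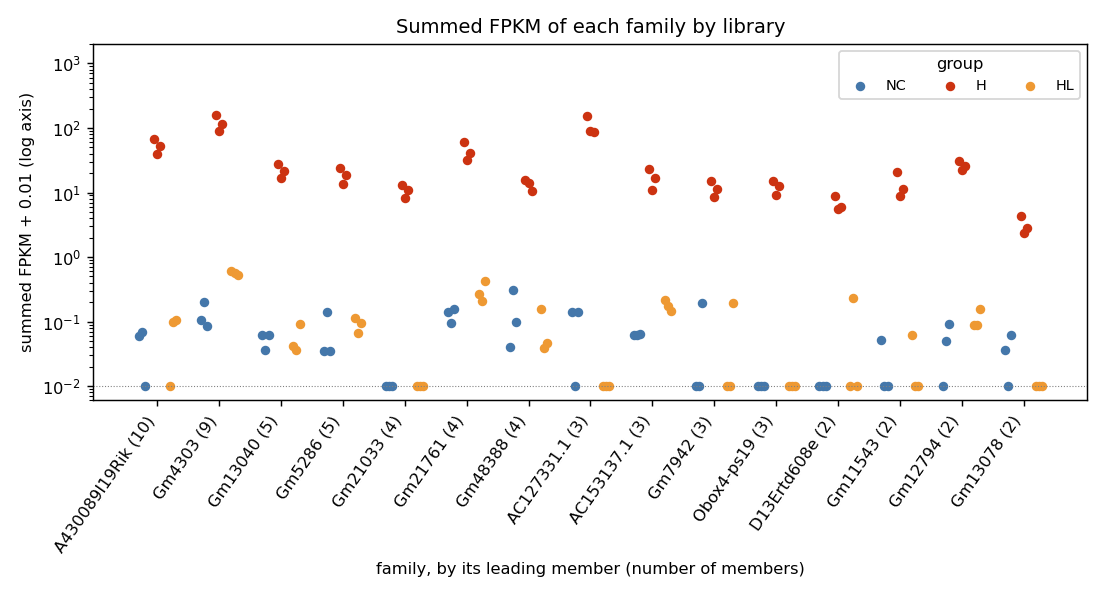
Points give the summed FPKM of each of 15 families in each library on a log axis, with 0.01 added so that sums of 0 show at the dotted line. In every family the 3 H points lie above all NC and HL points, and the Gm4303 family reaches 159 FPKM in H replicate 1.

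Beyond the members, the early embryo and MERVL-linked list held 121 other genes. Of these, 9 had passed the limits and were left out by symbol, and 13 of the remaining 112 were high enough to be tested. Of those 13, 7 were called higher in H than in NC (BB287469, Btg4, Gm8300, Nlrp10, Usp17la, Usp17lb and Usp17le) and 0 lower, beside 10.3% and 5.75% of all tested genes, and 7 were called lower and 1 higher in HL than in H. Usp17le had 15.3, 10.4 and 11 FPKM in H against 0.205 to 0.51 in NC and 0.285 to 0.357 in HL. BB287469, Usp17la, Usp17lb and Usp17le reached 1 FPKM only in H, so the filter for testing partly fixed their direction in both contrasts. Btg4 reached it in H and in 1 HL library, Nlrp10 only in HL, and Gm8300 in every library. The germ cell and meiosis list, by contrast, had 1 of 23 tested genes called higher and 4 lower in H. The lists were written with earlier results of these data known, so these counts are no independent evidence of a direction.

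Similar copies were common. Of the 137 genes, 61 had a similar member, 22 were similar to other genes only, and 54 had no similar copy. All families lay on 1 chromosome each, and 65 members fell into 11 runs of at least 3 members with gaps of up to 1 Mb, while 56 stood alone. The 54 genes without a similar copy summed to 219, 140 and 167 FPKM in H. They summed to 12.8, 10.8 and 10.1 in HL, and 1.34, 1.7 and 2.61 in NC. Fragments can be assigned to them with less doubt, but not without it. Among the 23 of them with 1 transcript, 87.6% of values under 20 fragments lay within 0.1 of a whole number. The share was 80.8% among the 45 such members with similar copies. By library, it was 99.3% to 99.6% for low values of genes with 1 transcript in general. Tnxa, 1 of the 54, had 0.86 fragments in NC replicate 1 and 4.3 in HL replicate 1. Of these 54, 51 were called lower in HL than in H and 11 higher in HL than in NC, against 80 and 3 of the 83 with similar copies. Their median HL mean was 3.17% of the H mean, against 0% for those with copies. Among long non-coding RNAs the median was 7.58%, among protein-coding genes 0.542% and among pseudogenes 0%.

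**Figure D3:**
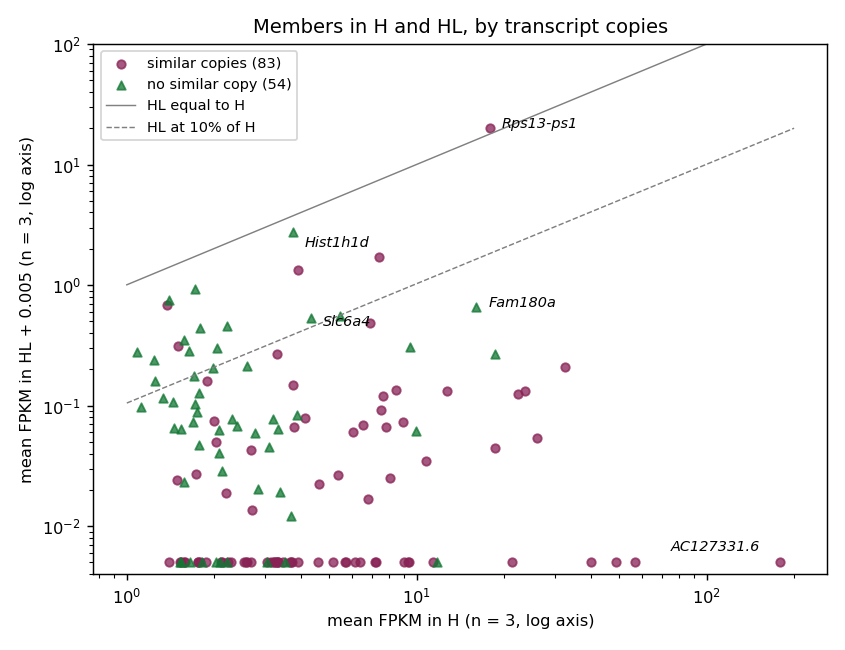
Each point is 1 member, with its mean FPKM in H and in HL on log axes (0.005 added to HL), and shapes separate the 83 genes with similar copies from the 54 without. Most points lie below the dashed line of 10% of H, Hist1h1d lies near the line of equal levels, and the 4 points with the highest H means sit at 0 in HL.

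The 4 highest H means on the list came from pseudogenes with clone names on chromosome 18, in a run of 5 members. AC127331.6 had 236.9, 123.8 and 175.8 FPKM in H and 0 in the other 6 libraries. AC127331.7 followed with 82.7, 42.6 and 44.3, and AC127331.1 with 64.1, 33.7 and 48.2, also at 0 in HL. AC127331.4 and AC127331.9 were at 0 in NC and HL although their transcripts are 91.5% identical to that of Elof1, an elongation factor gene with a mean of 58.9 FPKM in HL. The transcripts of AC127331.6 and AC127331.7 are 253 and 262 bases long, and for so short a transcript a few fragments give a large FPKM. Without these 5 rows, the members summed to 793, 525 and 589 FPKM in H and 67.2, 16 and 31.2 in HL. In HL replicates 1 and 3 most of the sum came from Rps13-ps1 (HL mean 20.1 FPKM), a pseudogene of uncertain level described below.

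Not all members were of the embryo type. Fam180a, a gene of little-known function with no similar copy, had 19.3, 12.6 and 16.3 FPKM in H (585, 322 and 500 fragments), 0 in all NC libraries, and 0.894, 0.559 and 0.516 in HL (26, 16.1 and 12 fragments). Its HL libraries lay between the other groups without overlap, 24.4-fold below H in the mean. The log2 difference of HL from H was -4.43 ± 0.26 (SE, limma, adjusted p = 3.97e-06) and that of HL from NC 2.89 ± 0.26 (adjusted p = 3.95e-05). The H and NC values chose this gene, so both p-values are descriptive.

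Slc6a4, the serotonin transporter, had 5.65, 3 and 4.29 FPKM in H (4.31 ± 1.33, SD, n = 3), 0.0446, 0.0193 and 0.0638 in NC (0.0426 ± 0.0223), and 0.543, 0.517 and 0.538 in HL (0.533 ± 0.0138). Here, too, HL stood between the groups, at 12.4% of H and 12.5-fold above NC (log2 difference 2.16 ± 0.30 SE, limma, adjusted p = 0.000387). Its neighbour on chromosome 11, Tmigd1, which encodes an adhesion protein of epithelial cells, had 12.1, 9.25 and 8.5 FPKM in H but 0.0838, 0.0854 and 0 in HL, within the NC range of 0 to 0.122.

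Among channels and lipid enzymes, Scn11a, a sodium channel of sensory neurons, had 3.67, 2.19 and 2.6 FPKM in H, 0 in NC, and 0.00826, 0.0166 and 0.0206 in HL. Alox12e, an epidermal lipoxygenase, had 5.06, 2.2 and 3.77 FPKM in H and 0.0214, 0 and 0 in HL. Aloxe3, which acts on lipoxygenase products in the skin barrier, kept more of its level, with 2.18, 1.55 and 1.62 FPKM in H and 0.576, 0.33 and 0.407 in HL against 0.043 to 0.0731 in NC (HL against NC, log2 difference 1.73 ± 0.32 SE, limma, adjusted p = 0.00198). All 3 genes were lower in every HL library than in any H library.

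Cyp3a41b, a cytochrome of steroid and drug oxidation, had 4, 3.46 and 1.94 FPKM in H and 0 elsewhere. Its transcript is 99.7% identical to that of Cyp3a41a, which had 18.5, 11.6 and 15.6 FPKM in H and 0.291 to 0.424 in the other libraries, so the division between the 2 is uncertain. Pax8, a paired box factor of thyroid and kidney, had 3, 1.09 and 1.01 FPKM in H and 0.12, 0.122 and 0.269 in HL, and H replicate 1 set much of its mean. Of the other 9 kidney tubule markers, Aqp2 and Cubn reached 1.68 to 2.31 FPKM in H and Umod and Slc22a6 were at or near 0. Krt23, a keratin, had 1.46, 1.37 and 1.55 FPKM in H, and its HL values of 0.0355, 0.144 and 0 fell within its NC range of 0 to 0.147. The olfactory receptor gene Olfr101 had 2.63, 1.21 and 1.49 FPKM in H and at most 0.0746 in HL.

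**Figure D4:**
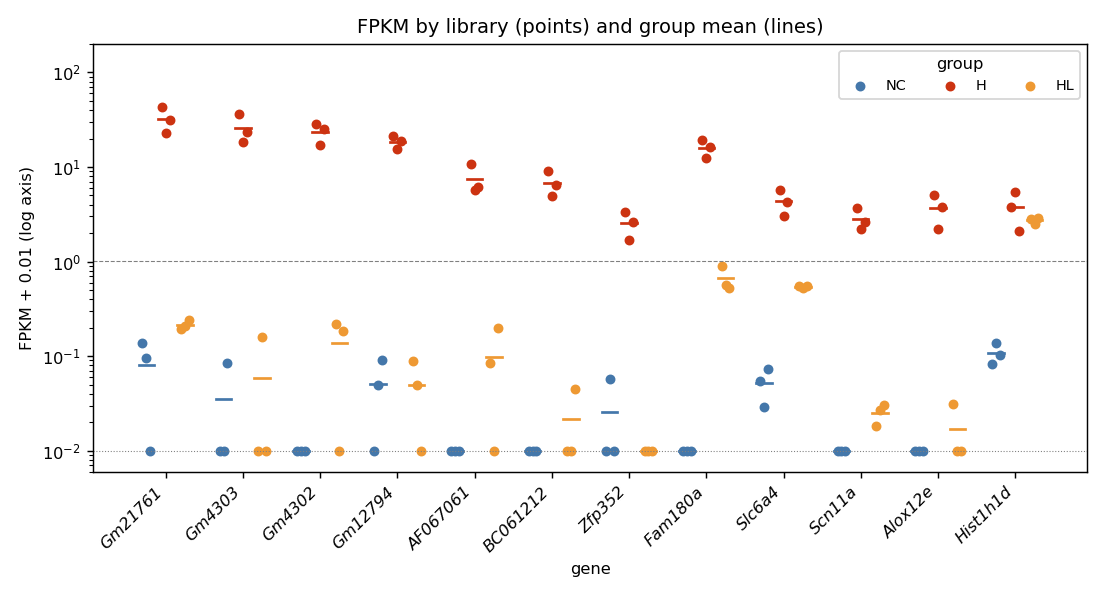
Points give the FPKM of 12 members in each library and short lines the group means, on a log axis with 0.01 added (dotted line, 0 FPKM, dashed line, 1 FPKM). Gm21761 to Zfp352 lie below 0.3 FPKM in HL, Fam180a and Slc6a4 lie between the NC and H points, and Hist1h1d has its HL points within the range of its H points.

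Hist1h1d, a linker histone gene (now H1f3), was the 1 member with at least 1 FPKM in each HL library. It had 3.73, 5.37 and 2.1 FPKM in H (3.73 ± 1.64, SD, n = 3), 2.84, 2.48 and 2.88 in HL (2.73 ± 0.217), and 0.073, 0.126 and 0.0925 in NC. The difference between HL and H was smaller than the spread of the H libraries (log2 difference -0.34 ± 0.31 SE, limma, adjusted p = 0.39). HL was higher than NC by 3.85 ± 0.31 on the log2 scale (adjusted p = 2.48e-05), with 442, 382 and 358 fragments against 11, 19 and 14. The annotated transcript is 7425 bases long.

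The other 5 members not called lower in HL than in H were Rps13-ps1, 2310069B03Rik, Gm9775, Gm38046 and Gm43909. Gm43909, a locus of the class TEC, had 1.59, 1.17 and 1.44 FPKM in H and 0.83, 0.696 and 0.715 in HL, so its groups did not overlap, and its log2 difference of -0.82 ± 0.30 (SE) passed the p threshold but not the fold threshold (limma, adjusted p = 0.0457). The long non-coding RNA 2310069B03Rik had 1.28, 2.86 and 1 FPKM in H and 1.41, 0.716 and 0.661 in HL, with overlap, and Gm38046 had 1.24, 1.47 and 1.42 in H and 0.814, 1.04 and 0.203 in HL, without overlap. Both were called higher in HL than in NC.

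For several members, a near-identical gene with a higher level made the level uncertain. Gm2056 and Gm21936 are 98.2% identical to Gm8332, which had a mean of 127 FPKM in H, and Gm49262 is 96.7% identical to Snrpg, with 55.3. Rps13-ps1, 99.8% identical to the ribosomal protein gene Rps13 (mean 538.9 FPKM in H), had 5.93, 43.7 and 3.97 FPKM in H and 41.7, 0 and 18.7 in HL, a spread over libraries as wide as the level itself. Gm9775 matched 9330159M07Rik in full and had 2.94, 1.04 and 0 FPKM in HL. The 2 small RNAs lie in host transcripts with the same letters, mmu-mir-3535 in the nucleolin gene Ncl and Gm23202 in Rpl21, and had HL values of 5.1, 0 and 0 and of 0.924, 0 and 0 FPKM, with the H libraries of mmu-mir-3535 at 8.66, 10.3 and 3.31.

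The lncRNAs Gm31045 and Gm20033 were among those called higher in HL than in NC. Gm31045 had 7.27, 4.31 and 4.78 FPKM in H, 0.845, 0.435 and 0.352 in HL and 0 to 0.219 in NC, and Gm20033 had 2.33, 2.15 and 2.18 in H, 0.563, 0.236 and 0.57 in HL and 0 to 0.0399 in NC. Gm567 had 11.3, 7.34 and 9.79 FPKM in H and 0.67, 0.239 and 0 in HL, overlapping NC, and CT030636.2 with 3.96, 2.85 and 3.7 in H was at 0 in all other libraries.

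Within the H group most members shared the same order of libraries. The FPKM was highest in H replicate 1 for 115 of the 137 genes, in H replicate 2 for 10 and in H replicate 3 for 12, whereas H replicate 1 was highest in 40.4% of the 12579 genes with at least 1 FPKM in each H library. The median ratio of H replicate 1 to H replicate 2 was 1.65 for the members (quartiles 1.31 and 1.94) and 1.02 for the 12442 other genes (0.868 and 1.19). The order of replicate 1 over 3 over 2 was found in 67.2% of members and 27.5% of the others. The osmotic stress list, which holds no member, had its highest H sum in the same library (19000, 14200 and 15000 FPKM in H, at most 8290 in NC and 7300 in HL), as had the keratin list without Krt23 (335, 200 and 256). This was not particular to them, as most function lists without their members had it. Among these were the lipid, steroid and xenobiotic enzymes (12000, 8780 and 9770) and the zinc finger proteins (3710, 3520 and 3620). The G protein-coupled receptors, the serine proteases and serpins, and the developmental factors had their highest H sum in replicate 2. The 11 myoblast markers summed to similar values in the H libraries (2330, 2320 and 2410 FPKM), although Myod1, 1 of them, had 4.09, 7.63 and 12.7. The rule sets no order among the H libraries, but genes of 1 family are not independent of each other.

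**Figure D5:**
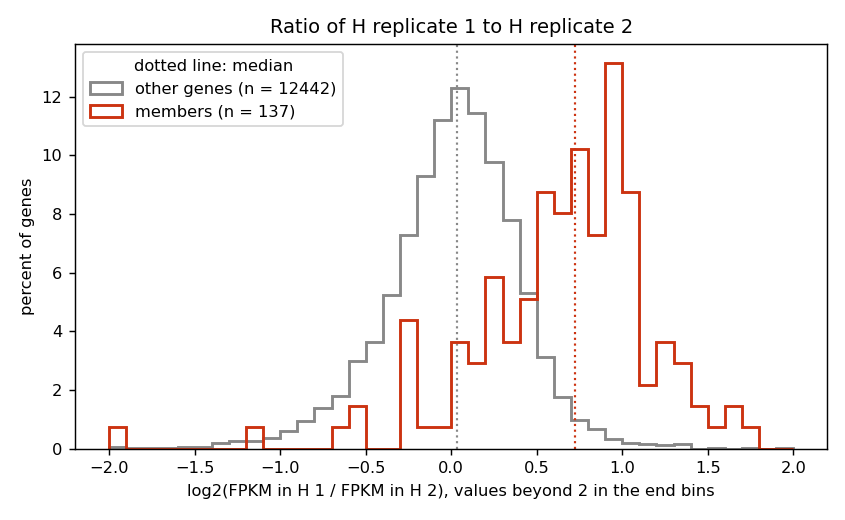
The lines give the percent of genes by log2 ratio of FPKM in H replicate 1 to H replicate 2, for the 137 members and the 12442 other genes with at least 1 FPKM in each H library. The members centre on a ratio of 1.65 and the other genes on 1.02.

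The share of members with a gene close upstream was near that of all genes. On the same strand, 37 of the 137 (27%) had another gene ending or starting within 10 kb upstream, against 31.4% of all 51482 annotated genes. The upstream gene was another member in 10 cases. In the other 27 it had a mean of at least 1 FPKM in NC in 5 cases, and in 2 of these 5 its H mean was over 2 times its NC mean.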

How the data were processed

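RNA was enriched for mRNA and sequenced on an Illumina HiSeq in 9 libraries. The authors trimmed the reads with fastp and, per the labels and methods, used HISAT2 (2.1.0) and StringTie (1.3.3b), and deposited 1 table of FPKM per gene and library. The sources differ in the genome they name (mm39 in the submitters' processing notes, a human genome in the methods) and in the quantifier, while gene identifiers were mouse Ensembl ones. Coordinates are therefore given only for RefSeq promoters, on GRCm38.p6, and distances between genes come from GENCODE M21. FPKM are not counts, so limma (3.58.1, statmod 1.5.0, R 4.3.3) was run on log2(FPKM + 0.1) with trend and robust options, fitting the 9 libraries jointly for the 13674 genes that reached 1 FPKM in 3 or more of them, with Benjamini-Hochberg adjustment. This scale understates the change of low genes. The fit was also run on simulated data with gains in HL for randomly drawn genes. That setting does not cover members near 0 in NC and HL.

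Symbols were matched for 51482 of 54307 genes. Depth was estimated from FPKM steps of genes with 1 transcript, taking an effective length of the transcript less 270 bases, and 99.3% to 99.6% of low values lay no more than 0.1 from a whole number of fragments. Transcripts of GENCODE M21 were compared with BLAST+ (2.17.0), and promoters came from RefSeq (GRCm38.p6). Python 3.11.15, pandas 2.3.3, SciPy 1.17.1 and matplotlib 3.10.9 were used. Named genes are the 12 highest H means, the 8 highest HL means, up to 4 per gene list and 3 per annotation class by H mean, up to 6 with HL at or above H, the 3 nearest each limit, up to 8 called higher in HL than in NC by size, and up to 6 not called lower in HL than in H. The families and any other gene were named after their values were seen. Members, lists and motifs were chosen with earlier results of these data known.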

Additional observations from a re-analysis of the deposited data

How the results depend on the processing

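The count of 131 genes called lower in HL than in H was 125 to 132 under a pseudocount of 1 or 0.01, TPM scaling, median centring, no robust option, no filter, a fit of only the groups compared and no fold threshold, and 129 to 132 when any 1 library was left out. Testing only genes whose mean reached 5 FPKM, 13 members remained and 12 were called. The 14 genes called higher in HL than in NC became 1 with a pseudocount of 1 and 1 with that stricter filter, were 12 to 15 under the other settings, and were 12 to 16 without single libraries. The log2 medians changed with the pseudocount by construction: for HL against H, -4.48 became -1.87 at 1 and -7.24 at 0.01, and -4.96 in TPM, with -4.67 to -4.29 without single libraries. For HL against NC, 0.03 became 0 at a pseudocount of 1, 0.07 at 0.01, 0.07 in TPM and 0.05 with median centring, and 0 to 0.12 without single libraries. TPM scaling moved the median of all tested genes in HL against H from 0.040 to -0.065, and the share of lower calls from 62.1% to 73.1%.

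The rule itself gave 273 genes at an H limit of 0.5, 74 at an H limit of 2, and 107 to 192 under other NC limits and TPM, of which TPM shared 125 with the 137, and 147 to 184 when a library was left out. At least 0.5 FPKM in each HL library was reached by 5 members (Hist1h1d, Fam180a, Slc6a4, 2310069B03Rik and Gm43909), and 1 FPKM by 2 when HL replicate 2 (with Rps13-ps1) or replicate 3 (with Gm9775) was left out and by 1 without replicate 1. Within 5 kb upstream 18 members had another gene, and within 50 kb 79. Replicate numbers are shared between groups. Deviations of same-numbered libraries correlated by -0.0366 to 0.0911 and those of other numbers by -0.0705 to 0.0597. Pairing was therefore not assumed, but such weak correlations cannot exclude it. With a replicate block, 131 genes were lower in HL than in H and 13 higher than in NC, the medians staying at -4.48 and 0.03. Of the named genes, mmu-mir-3535 and Gm23202 lost their call in HL against H when single H or HL libraries were left out, and Gm9775 and Gm45463 lost theirs in HL against NC without most single libraries. At 17.4 to 22.9 M fragments, 1 to 3 fragments in HL cannot be told from 0.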
